A study of Homo sapiens with 12 samples.

Results

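The nuclear genes that encode the subunits of the 5 complexes of oxidative phosphorylation were followed in Granta-519 and JeKo-1, human cell lines of mantle cell lymphoma, after silencing of cyclin D1. Members were chosen by gene symbol alone: NDUFA, NDUFB, NDUFC, NDUFS and NDUFV genes for complex I, SDHA to SDHD for complex II, UQCR genes for complex III, COX4 to COX8 genes for complex IV and ATP5 genes for complex V. This gave 88 of the 23617 gene symbols in the Granta-519 table and the same 88 of 23615 in the JeKo-1 table, with 37 genes for complex I, 4 for complex II, 10 for complex III, 17 for complex IV and 20 for complex V. Of the 88, 80 are subunit genes, 4 are near copies of a subunit gene (UQCRHL, UQCRBP1, ATP5EP2 and ATP5L2), 1 is the read-through transcript ATP5J2-PTCD1, and 3 carry a subunit-like symbol without being a subunit (ATP5S, ATP5SL and COX7A2L). NDUFA4 was counted with complex I by its symbol, although its protein is now assigned to complex IV. The symbols are the older ones used in the tables.

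Lentiviral infection brought a cyclin D1 shRNA (shCycD1) or, in the other group of each line, a control shRNA (shCtrl), and puromycin selection followed, so the controls had the virus and the selection too. Each of the 4 groups held 3 libraries of poly(A) RNA, which the submitters call biological replicates without saying whether they are separate infections. The sources used here do not give the number of hairpins or the time between infection and harvest. The labels put the lines in different culture media, so line and medium cannot be told apart. The p-values measure the spread between these libraries of 1 line each.

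The deposited values were read as logarithms of RPKM (reads per kilobase of gene, scaled to the size of the library), and RPKM is printed below. By its values, the Granta-519 table counts introns in a gene's length. For JeKo-1 the length and the base of the logarithm are inferred and not settled, so no level was set beside one from the other table. Were the JeKo-1 table in log2, its changes would be smaller, with the median of the members at -0.17 in place of -0.25 and still 6 risen and 39 fallen. A change is the difference shCycD1 minus shCtrl of log2(RPKM + 0.5), a scale that understates the change of low genes. The limma model was fitted to all genes of a line whose RPKM reached 1 in 3 or more of its 6 libraries, and a gene rose or fell where the Benjamini-Hochberg adjusted p was under 0.05. The files hold no counts, so the depth behind a value is unknown. Across genes, replicates correlated at 0.98 or more in Granta-519 and at 0.97 in JeKo-1, while shCtrl and shCycD1 libraries correlated at no more than 0.96 and 0.90. CCND1, the cyclin D1 gene, changed by -1.83 on the log2 scale in Granta-519 (adjusted p = 0.000257) and by -2.38 in JeKo-1 (adjusted p = 1.96e-06), with no overlap between the groups. All 6 B-cell markers looked at passed the filter in both lines, and 3 of them fell in Granta-519 while 3 rose in JeKo-1. The 6 T and NK cell markers summed to 0.727 to 1.25 RPKM per library in Granta-519 and 2.22 to 2.93 RPKM in JeKo-1. The 5 myeloid markers summed to 51.6 to 61.2 RPKM in Granta-519, where 2 of 3 tested rose, and to 1.95 to 2.54 RPKM in JeKo-1. The 6 fibroblast and epithelial markers summed to 9.20 to 14.2 and 2.16 to 2.94 RPKM, with 1 risen in each line. The part of these markers in the results was not tested.

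Oxidative phosphorylation takes place in the inner mitochondrial membrane. Complex I takes electrons from NADH and complex II takes them from succinate; complex III passes them through cytochrome c to complex IV, which reduces oxygen, and complex V (ATP synthase) uses the proton gradient built by complexes I, III and IV to make ATP. All complexes except complex II also hold subunits encoded by mitochondrial DNA, so the nuclear and mitochondrial genomes must supply parts of the same enzymes. Mantle cell lymphoma is a B-cell cancer in which a translocation typically switches on CCND1, whose protein drives the G1 phase of the cell cycle with CDK4 and CDK6.

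With libraries scaled to their own size, a larger share of the members than of all genes fell in JeKo-1, and few members were called in Granta-519. Both counts turn when libraries are scaled by their spike-in RNAs. In JeKo-1, 9 of 82 members (11.0%) then fell and 0 rose, beside 15.5% and 15.2% of all genes. Their median stayed below that of all genes, at -0.36 beside -0.03. In Granta-519, 62 of 82 rose, beside 58.0% of all genes. Quantile normalization gave 28 falls (34.1%) and 15 rises in JeKo-1, beside 30.7% and 33.2% of all genes, with medians of -0.11 and 0.03. The values that follow use neither, unless stated. Of the 82 members that passed the filter in JeKo-1, 39 fell and 6 rose, which is 47.6% and 7.32% of them, beside 27.8% and 36.7% of all 11866 genes tested. In Granta-519, 3 of 82 fell and 6 rose (3.66% and 7.32%), beside 18.2% and 22.4% of the 12668 genes tested. The median change of the members was -0.25 in JeKo-1, with all genes at 0.09, and 0.04 in Granta-519, with all genes at 0.03. Members ranged from -1.23 to 0.88 in JeKo-1 and from -0.42 to 0.88 in Granta-519. The 3 shCycD1 libraries lay below the 3 shCtrl libraries for 40 of the 82 members in JeKo-1 and above them for 7, beside 30.5% and 39.1% of all genes. In Granta-519 they lay below for 10 and above for 8, beside 24.2% and 29.8% of all genes, and overlapped for 64. In RNA from whole cultures, fewer cells of a kind and less RNA per cell cannot be told apart.

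The median absolute change of the members in Granta-519 was 0.14, against 0.27 for all genes tested, while their median standard error was 0.11, the same as for all genes. In JeKo-1 the median absolute change was 0.31 for the members and 0.45 for all genes, with median standard errors of 0.09 and 0.11. Changes of 1 or more on the log2 scale were seen for 0 members in Granta-519 and 2 in JeKo-1. One control library mattered in Granta-519: shCtrl replicate 2 was the highest of the 3 controls for 71 of the 82 members, and its members sat at a median of 0.15 above their own mean over the 6 libraries, against -0.08 and -0.10 in the other 2 controls. Without that library 14 members rose and 4 fell, against 6 and 3 with it. Over all genes 2712 rose and 2439 fell without it, against 2840 and 2303 with it.

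The 2 lines differed in what the members did, and this difference was tested directly as the change in Granta-519 minus the change in JeKo-1 in a fit of all 12 libraries. It was positive past the threshold for 32 of the 82 members (39.0%) and negative for 1, SDHA, beside 19.3% and 22.6% of the 10653 genes tested in both lines. Its median was 0.26 for the members and -0.02 for all genes, and 66 members lay above 0. The GC and length correction left 19 positive differences (14 of the 32 among them), beside 16.7% of all genes, and a median of 0.15. Quantile normalization left 21 of the 82 positive and 6 negative, beside 21% and 22% of all genes, and a median of 0.13. Reading the JeKo-1 table as log2 left 20, beside 15.8% of all genes, and a median of 0.22. Spike-in scaling gave 58 positive and 0 negative, beside 36.8% and 1.37% of all genes. A total of 6 members were called the same way in both lines, 3 up and 3 down. COX7C and UQCR11 were among those that rose, and NDUFB6, UQCRC1 and COX7A2L fell. A further 36 fell in JeKo-1 with no call in Granta-519. Another 3 rose in Granta-519 alone and 3 in JeKo-1 alone, and 34 were called in neither line. No such joint tally was made over all genes, so whether these counts are unusual was not tested. Counted per line, the tested genes as a whole had 22.4% up and 18.2% down in Granta-519. For JeKo-1 these shares were 36.7% and 27.8%.

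**Figure D1:**
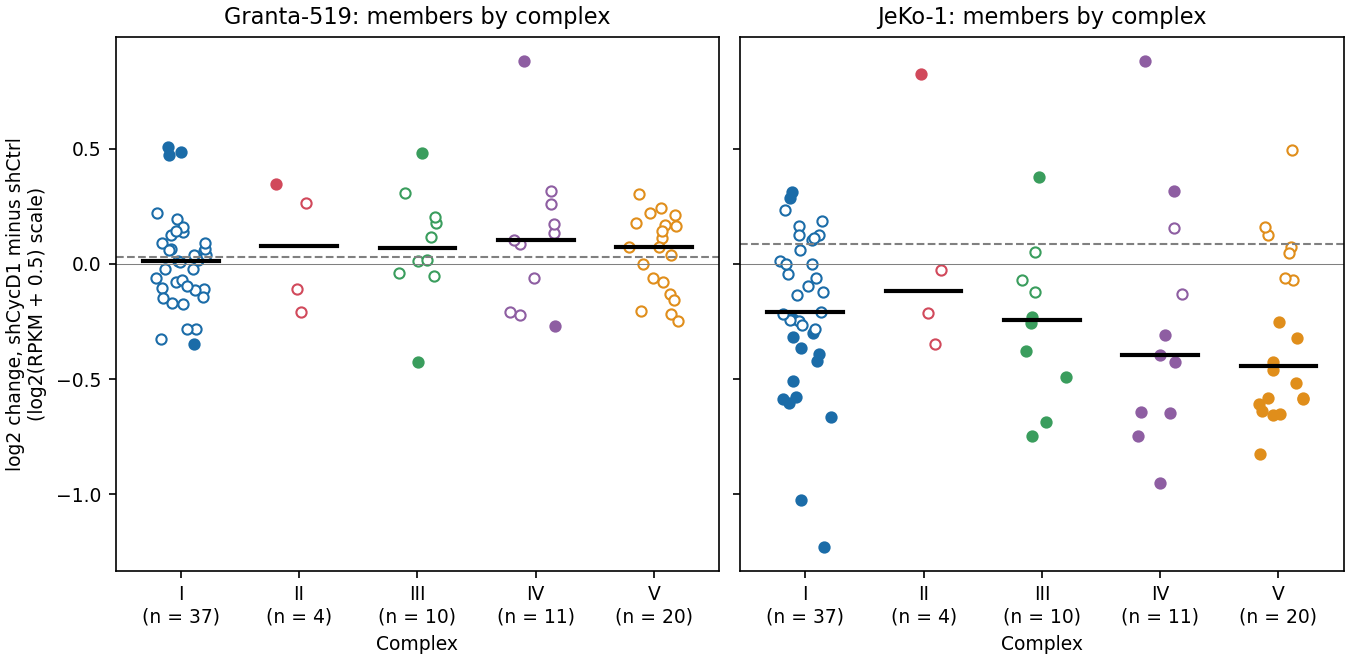
Change of each tested member on the log2(RPKM + 0.5) scale (vertical axis, shCycD1 minus shCtrl) in complexes I to V (horizontal axis), Granta-519 on the left and JeKo-1 on the right. A point is a gene, filled where it rose or fell past the threshold, a bar is the median of a complex and the dashed line the median of all genes tested. In JeKo-1 the medians go from -0.12 in complex II to -0.44 in complex V, and in Granta-519 they lie between 0.01 and 0.10.

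By complex, the share of members that fell in JeKo-1 was 13 of 37 in complex I, 0 of 4 in complex II, 6 of 10 in complex III, 7 of 11 in complex IV and 13 of 20 in complex V. The share over all genes was 27.8%, which complex I, at 35.1%, lay nearer to than complexes III to V did. The median changes were -0.21, -0.12, -0.24, -0.39 and -0.44 in that order. With the correction for GC content and length they were -0.068, 0.068, -0.063, -0.18 and -0.22, so that complex II turned, and with quantile normalization 0.019, -0.031, -0.14, -0.18 and -0.23, so that complex I turned. In Granta-519 the same complexes had medians of 0.01, 0.08, 0.07, 0.10 and 0.07, and no gene of complex V was called there. The difference between the lines passed the threshold, higher in Granta-519, for 9 genes of complex I, 2 of complex II, 5 of complex III, 4 of complex IV and 12 of complex V. For complex I that is 24.3%, beside 19.3% of all genes, and for complex V 60.0%. Leaving out the copies, the read-through transcript and the 3 genes that are not subunits left 74 tested genes, of which 35 fell and 6 rose in JeKo-1 and 2 fell and 6 rose in Granta-519.

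Complex I oxidises NADH in its peripheral arm and pumps protons in its membrane arm. The largest falls among all members in JeKo-1 were in 2 small accessory subunits of the membrane arm, NDUFB6 and NDUFB1. NDUFB6 was at 53.7, 71.5 and 55.6 RPKM in the shCtrl libraries and 26.02, 26.8 and 23.1 RPKM in the shCycD1 libraries of JeKo-1, a change of -1.23 ± 0.12 (SE, adjusted p = 0.000134). It was also lower in Granta-519, at 21.4, 23.9 and 21.5 RPKM in the shCtrl libraries and 17.9, 16.03 and 18.2 RPKM in the shCycD1 libraries, a change of -0.35 ± 0.08 (SE, adjusted p = 0.0169) that became 0.38 when libraries were scaled by their spike-in RNAs. The groups did not overlap in either line, and the fall was larger in JeKo-1 by 0.88 ± 0.15 (SE, adjusted p = 0.000976). NDUFB1 stood at 176, 199 and 169 RPKM in the shCtrl libraries and 86.9, 93.4 and 85.2 RPKM in the shCycD1 libraries of JeKo-1, 2.04-fold lower, with a log2 change of -1.03 ± 0.08 (SE, adjusted p = 4.78e-05). In Granta-519 its libraries overlapped, from 39.3 to 54.95 RPKM in the controls and from 33.04 to 40.5 RPKM with shCycD1, and its change of -0.28 was not called (adjusted p = 0.149).

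Core subunits of complex I differed in their calls. In the NADH-oxidising module NDUFS1, the largest iron-sulphur subunit, fell in JeKo-1 from 49.9 ± 1.98 to 31.3 ± 1.31 RPKM (SD, n = 3), a change of -0.67. NDUFV2, which holds an iron-sulphur cluster beside the NADH site, changed by -0.37 in JeKo-1 (adjusted p = 0.00196), a value that became 0.05 after correction for GC content and length. NDUFV1, which binds NADH and flavin, was not called in JeKo-1, with a change of 0.12 (adjusted p = 0.207), or in Granta-519, with -0.10 (adjusted p = 0.287). In JeKo-1 NDUFV1 was called lower after that correction (-0.17) and higher with quantile normalization. In the module that passes electrons to quinone, NDUFS3 fell in JeKo-1 by 0.24 (adjusted p = 0.034), a call lost with quantile normalization or spike-in scaling. NDUFS7 and NDUFS8 were called in neither line. With the GC and length correction NDUFS7 was called lower in both lines. NDUFS8 was called lower in JeKo-1 when a replicate block was added to that correction.

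Besides NDUFB6, the accessory subunits of complex I called in Granta-519 were NDUFB5 and NDUFA1. NDUFB5 was at 42.4, 49.9 and 44.4 RPKM in the shCtrl libraries and 70.6, 62.02 and 62.5 RPKM in the shCycD1 libraries there, with no overlap, and at 71.8 ± 10.9 and 59.5 ± 5.58 RPKM (SD, n = 3) in the shCtrl and shCycD1 groups of JeKo-1. Its changes of 0.51 and -0.26 differed between the lines by 0.77 ± 0.16 (SE, adjusted p = 0.00251). NDUFA1 rose by 0.48 in Granta-519 (adjusted p = 0.0399) although 1 shCycD1 library, at 158 RPKM, lay below the highest control, at 161 RPKM. That call was lost with a replicate block (adjusted p = 0.105) or without any 1 of 4 libraries (up to 0.126). NDUFA10 rose in JeKo-1, by 0.29 (adjusted p = 0.0223). The NDUFA10 call was lost with quantile normalization, with spike-in scaling or without any 1 of 5 libraries (adjusted p up to 0.074). The remaining falls of complex I in JeKo-1 lay between -0.60 (NDUFA6) and -0.30 (NDUFB4) and took in NDUFA4, NDUFA9, NDUFA12, NDUFB3, NDUFS5 and NDUFS6. For 20 of the 37 genes the JeKo-1 groups overlapped. The shCycD1 libraries lay below all controls for 14 and above them for 3, beside 30.5% and 39.1% of all genes.

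Complex II oxidises succinate and is also an enzyme of the tricarboxylic acid (TCA) cycle. Of its 4 genes, SDHA was called in JeKo-1 and SDHC in Granta-519. SDHA encodes the flavoprotein that binds succinate, and in JeKo-1 it was at 59.2, 49.9 and 54.3 RPKM in the shCtrl libraries and 94.03, 85.04 and 113 RPKM in the shCycD1 libraries. The JeKo-1 groups were wide apart, a 1.77-fold rise, with a log2 change of 0.83 ± 0.12 (SE, adjusted p = 0.000727). In Granta-519 SDHA was at 23.6, 22.2 and 26.1 RPKM in the shCtrl libraries and 20.1, 20.9 and 20.8 RPKM in the shCycD1 libraries, all shCycD1 values below all controls, a change of -0.21 that was not called (adjusted p = 0.077) and that became 0.52 with spike-in scaling. SDHA was the only member whose change was lower in Granta-519 than in JeKo-1 past the threshold, by -1.04 ± 0.15 (SE, adjusted p = 0.000256); with spike-in scaling this difference was -0.19 (adjusted p = 0.708). The near copies of SDHA, SDHAP1, SDHAP2 and SDHAP3, rose in JeKo-1 too, by 0.69, 0.69 and 0.81 on the log2 scale, and were not called in Granta-519 (-0.10, -0.21 and -0.07). Reads of SDHA and its copies may have been shared in the counting, so each of these values is uncertain on its own.

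SDHB, the iron-sulphur subunit, was called in neither line (-0.11 in Granta-519 and -0.21 in JeKo-1). SDHC and SDHD anchor the enzyme in the membrane and bind quinone. SDHC was at 7.47, 7.53 and 7.30 RPKM in the shCtrl libraries and 9.88, 9.48 and 9.43 RPKM in the shCycD1 libraries of Granta-519, and these narrow groups gave a change of 0.35 ± 0.07 (SE, adjusted p = 0.00815). In JeKo-1 it changed by -0.03 (adjusted p = 0.819), and the difference between the lines was 0.37 ± 0.11 (SE, adjusted p = 0.0179). SDHD leaned in opposite directions, 0.26 in Granta-519 (adjusted p = 0.0506) and -0.35 in JeKo-1 (adjusted p = 0.0986). Neither value was called, but their difference was, at 0.61 ± 0.20 (SE, adjusted p = 0.0291). It did not pass after quantile normalization (0.37, adjusted p = 0.14) or the GC and length correction (0.19, adjusted p = 0.377).

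Complex III hands electrons from quinol to cytochrome c. Its large core protein UQCRC1 fell in both lines. It stood at 48.3, 48.9 and 42.9 RPKM in the shCtrl libraries and 35.9, 34.1 and 33.8 RPKM in the shCycD1 libraries of Granta-519, a change of -0.42 ± 0.08 (SE, adjusted p = 0.00528) that turned to 0.31 with spike-in scaling. The JeKo-1 values were 139.8, 127 and 116 RPKM in the shCtrl libraries and 98.9, 98.1 and 96.5 RPKM in the shCycD1 libraries, a change of -0.38 ± 0.08 (SE, adjusted p = 0.00489). No silenced library overlapped a control, and the difference between the lines was -0.05 ± 0.11 (SE, adjusted p = 0.754). Its partner UQCRC2 changed in JeKo-1 by -0.26 (adjusted p = 0.0109) and in Granta-519 by 0.01, and UQCRFS1, the Rieske iron-sulphur protein, by -0.23 (adjusted p = 0.0448) and 0.12. The JeKo-1 calls of UQCRC2 and UQCRFS1 were lost with quantile normalization, with spike-in scaling or with the GC and length correction. The small accessory subunit UQCR11 rose in both lines, from 99.1 ± 12.4 to 138 ± 13.4 RPKM in Granta-519 and from 97.6 ± 12.4 to 127 ± 12.03 RPKM in JeKo-1 (SD, n = 3), with changes of 0.48 (adjusted p = 0.0157) and 0.38 (adjusted p = 0.0209). The Granta-519 call was lost with a replicate block (adjusted p = 0.0562) or without any 1 of 3 libraries (up to 0.0592), and the JeKo-1 call with spike-in scaling (0.26, adjusted p = 0.584) or without either of 2 libraries (up to 0.0665). The hinge protein UQCRH, which sits by cytochrome c1, fell in JeKo-1 from 454 ± 46.9 to 269.5 ± 15.8 RPKM, a change of -0.75 ± 0.09 (SE, adjusted p = 0.000309). In Granta-519 it changed by -0.04 (adjusted p = 0.777), and the difference between the lines was 0.71 ± 0.14 (SE, adjusted p = 0.00224).

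The intronless copy UQCRHL followed UQCRH closely, with -0.69 in JeKo-1 and -0.05 in Granta-519. Within the Granta-519 table UQCRHL had a higher RPKM (2634 in the controls) than UQCRH (139), and within the JeKo-1 table the order was the other way round (66.2 and 454 RPKM). The copies share sequence with their parent genes, so they are not independent members and their levels cannot be set beside those of the parents. The same applies to ATP5EP2, at -0.83 in JeKo-1 beside -0.65 for ATP5E, to ATP5L2, at -0.66 beside -0.52 for ATP5L, and to UQCRBP1, at -0.07 beside 0.05 for UQCRB, where neither was called. In Granta-519 no copy and no parent gene was called.

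Complex IV, cytochrome c oxidase, held both the strongest rise and one of the strongest falls. COX7C, a small subunit of the membrane part, had the largest rise of all members in both lines. In Granta-519 it was at 409.8, 497 and 401 RPKM in the shCtrl libraries and 912, 689 and 813 RPKM in the shCycD1 libraries. In JeKo-1 it was at 434, 472 and 395 RPKM in the shCtrl libraries and 821, 814 and 756 RPKM in the shCycD1 libraries. The lowest silenced library stood well above the highest control in each line, and the fold was 1.84 in both, with log2 changes of 0.88 ± 0.13 (SE, adjusted p = 0.00242) and 0.88 ± 0.08 (SE, adjusted p = 9.47e-05). The difference between the lines was -0.00075 ± 0.16 (SE, adjusted p = 0.997), although a correction for GC content and length moved it to -0.47 (adjusted p = 0.0145). COX7B, another small membrane subunit, was at 675, 702 and 619 RPKM in the shCtrl libraries and 336, 367 and 328 RPKM in the shCycD1 libraries of JeKo-1, a change of -0.95 ± 0.08 (SE, adjusted p = 4.94e-05). In Granta-519 its groups overlapped, at 172 ± 26.7 and 164 ± 15.1 RPKM (SD, n = 3), and the difference between the lines was 0.89 ± 0.15 (SE, adjusted p = 0.000907).

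**Figure D2:**
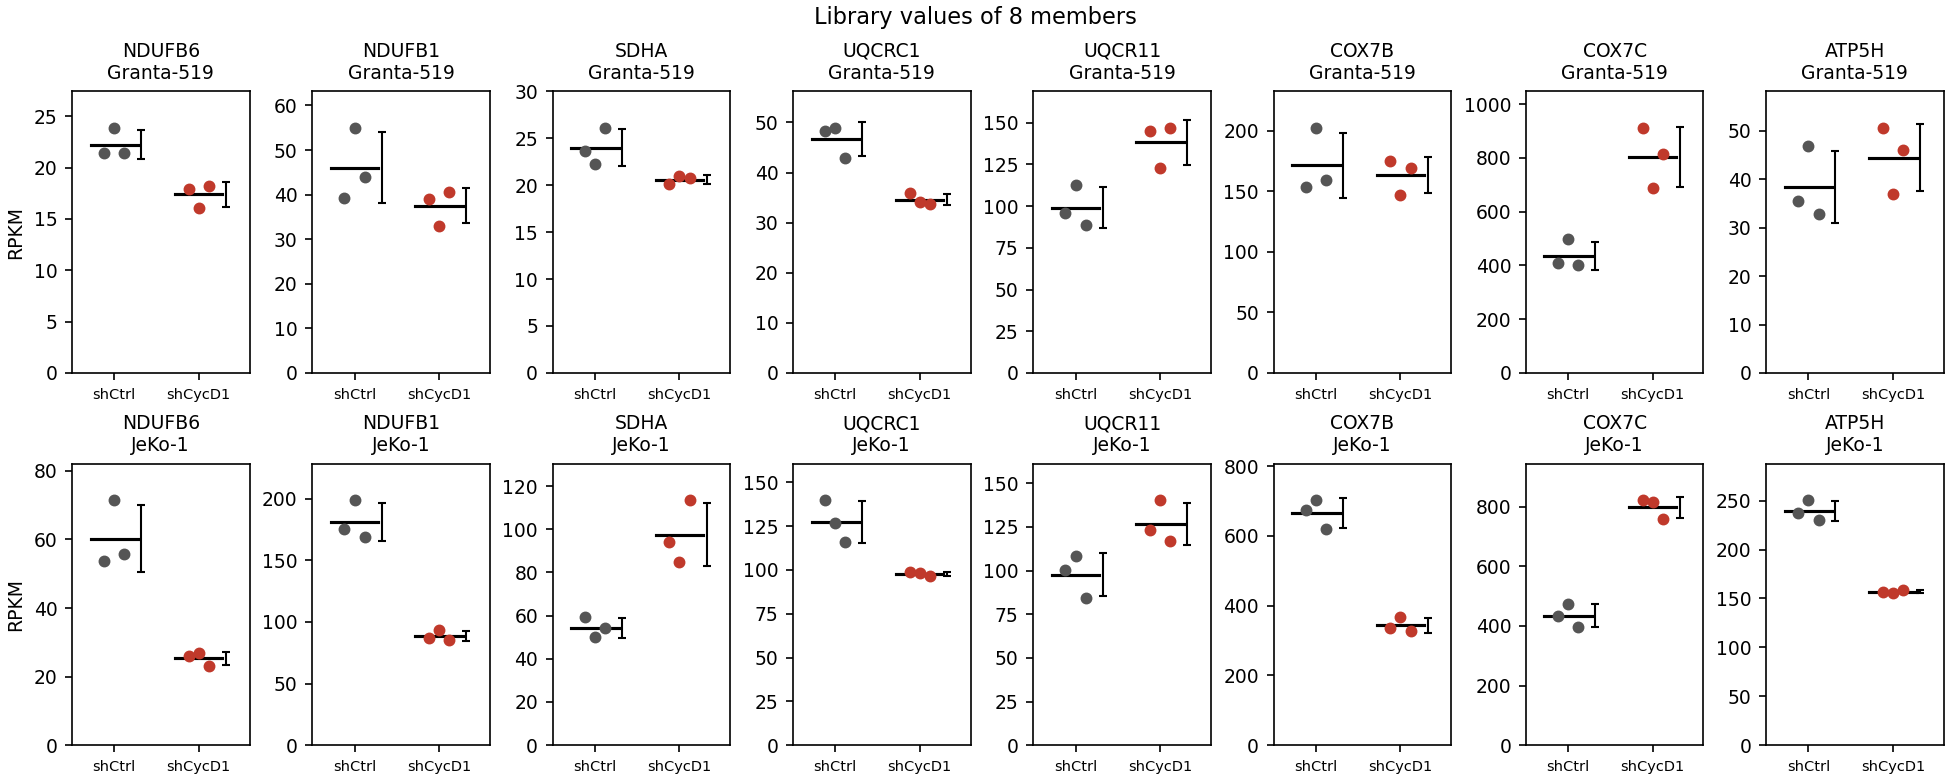
RPKM (vertical axes, each from 0) of 8 members in every library, Granta-519 in the upper row and JeKo-1 in the lower, shCtrl in grey and shCycD1 in red. The horizontal line is the mean of 3 libraries and the bar beside it the SD. COX7C is higher in all silenced libraries of both lines, SDHA only in those of JeKo-1, and COX7B and ATP5H are lower only in JeKo-1.

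The redox centres of complex IV lie in subunits made in the mitochondrion, and nuclear-encoded subunits surround them. Of these, COX4I1, which carries a regulatory ATP site, rose in JeKo-1 from 602 ± 23.4 to 749.6 ± 20.4 RPKM (SD, n = 3), a change of 0.32 ± 0.06 (SE, adjusted p = 0.00295). In Granta-519 it changed by 0.26 (adjusted p = 0.101). Its neighbour COX5A went down in JeKo-1 by 0.43 on the log2 scale (adjusted p = 0.00708). That call was lost with quantile normalization, with spike-in scaling or with the GC and length correction. COX5B was called in neither line (0.32 and 0.16). COX6C fell by 0.65 in JeKo-1. COX6A1, COX7A2 and COX8A are the forms found in most tissues, and their JeKo-1 changes were -0.31, -0.39 and -0.64, all past the threshold. After the GC and length correction COX6A1 was at 0.09 and COX7A2 at -0.0094 (adjusted p = 0.899), and with spike-in scaling COX7A2 was not called (adjusted p = 0.252). COX6B1 was not called, at -0.13. Their tissue-restricted counterparts COX4I2, COX6A2, COX6B2, COX7A1, COX7B2 and COX8C were the 6 members that did not pass the filter. COX6A2 was listed at 0 in all 12 libraries, and the highest value among the others was 1.06 RPKM, for COX6B2 in JeKo-1.

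COX7A2L, which has a COX symbol but acts as an assembly factor that joins complexes III and IV into a supercomplex, fell in both lines. It was at 93.9, 104 and 90.4 RPKM in the shCtrl libraries and 55.1, 56.3 and 59.4 RPKM in the shCycD1 libraries of JeKo-1, a change of -0.75 ± 0.08 (SE, adjusted p = 0.00015). In Granta-519 it was at 63.3, 76.1 and 68.2 RPKM in the shCtrl libraries and 57.5, 55.3 and 58.9 RPKM in the shCycD1 libraries, a change of -0.27 ± 0.08 (SE, adjusted p = 0.0417) that became 0.47 with spike-in scaling. This Granta-519 call was lost with a replicate block (adjusted p = 0.0906) or without any 1 of 5 libraries (up to 0.111). The groups did not overlap in either line, and the difference was 0.48 ± 0.11 (SE, adjusted p = 0.0055).

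Complex V had the highest share of falls in JeKo-1 and no call in Granta-519. In the catalytic F1 sector, ATP5A1 and ATP5B form the ring that holds the catalytic sites, and ATP5C1, ATP5D and ATP5E form the central stalk that turns inside it. ATP5E was at 1064, 1242 and 1071 RPKM in the shCtrl libraries and 706, 730.5 and 708 RPKM in the shCycD1 libraries of JeKo-1, well apart, a change of -0.65 ± 0.08 (SE, adjusted p = 0.00029). In Granta-519 it was at 414, 585 and 440.0 RPKM in the shCtrl libraries and 585, 535 and 642 RPKM in the shCycD1 libraries, with overlap, a change of 0.30 (adjusted p = 0.135). The difference of 0.96 ± 0.17 (SE, adjusted p = 0.00118) was the largest positive difference among the subunit genes chosen by symbol. ATP5C1 fell in JeKo-1 from 328 ± 7.19 to 219 ± 8.11 RPKM (SD, n = 3), a change of -0.58. Of the ring subunits, ATP5A1 fell in JeKo-1 by 0.25 (adjusted p = 0.00575), its Granta-519 value of 0.11 was not called (adjusted p = 0.196), and the lines differed (0.37, adjusted p = 0.00373). With quantile normalization neither the JeKo-1 fall nor the difference of ATP5A1 was called (adjusted p = 0.43 for the difference). The JeKo-1 fall was not called with spike-in scaling either. ATP5B was called in neither, at -0.07 and 0.17. ATP5D was the only F1 gene above 0 in JeKo-1, at 0.50 ± 0.22 (SE, adjusted p = 0.0827), with control libraries spread from 58.7 to 109 RPKM.

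The peripheral stalk, which holds F1 still while the rotor turns, is built from the products of ATP5F1, ATP5H, ATP5J and ATP5O, and all 4 genes fell in JeKo-1, by 0.59, 0.61, 0.64 and 0.58 on the log2 scale. This grouping was made after the values had been seen. ATP5H was at 237, 250.4 and 231 RPKM in the shCtrl libraries and 156, 155 and 159 RPKM in the shCycD1 libraries of JeKo-1. In Granta-519 it was at 35.6, 46.9 and 32.9 RPKM in the shCtrl libraries and 50.6, 36.9 and 45.96 RPKM in the shCycD1 libraries. The JeKo-1 groups were far apart and those of Granta-519 overlapped, with changes of -0.61 and 0.21 and a difference of 0.82 ± 0.19 (SE, adjusted p = 0.00444). The membrane subunits ATP5L and ATP5J2 fell in JeKo-1 by 0.52 and 0.43, and ATP5I was not called (0.07). ATP5G1, ATP5G2 and ATP5G3 encode the same mature c subunit of the rotor ring behind different import signals, and 2 of them were called in JeKo-1. In JeKo-1 ATP5G1 went from 336 ± 29.9 to 244 ± 21.1 RPKM, a change of -0.46 ± 0.09 (SE, adjusted p = 0.00391). ATP5G3 changed by -0.32 ± 0.10 (SE, adjusted p = 0.0247), a call lost with quantile normalization, with spike-in scaling or with the GC and length correction. ATP5G2 was not called, at 0.13 ± 0.11 (SE, adjusted p = 0.339). The difference among these genes was not tested. The genes ATP5S and ATP5SL, which are not subunits, and ATP5J2-PTCD1 were called in neither line.

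**Figure D3:**
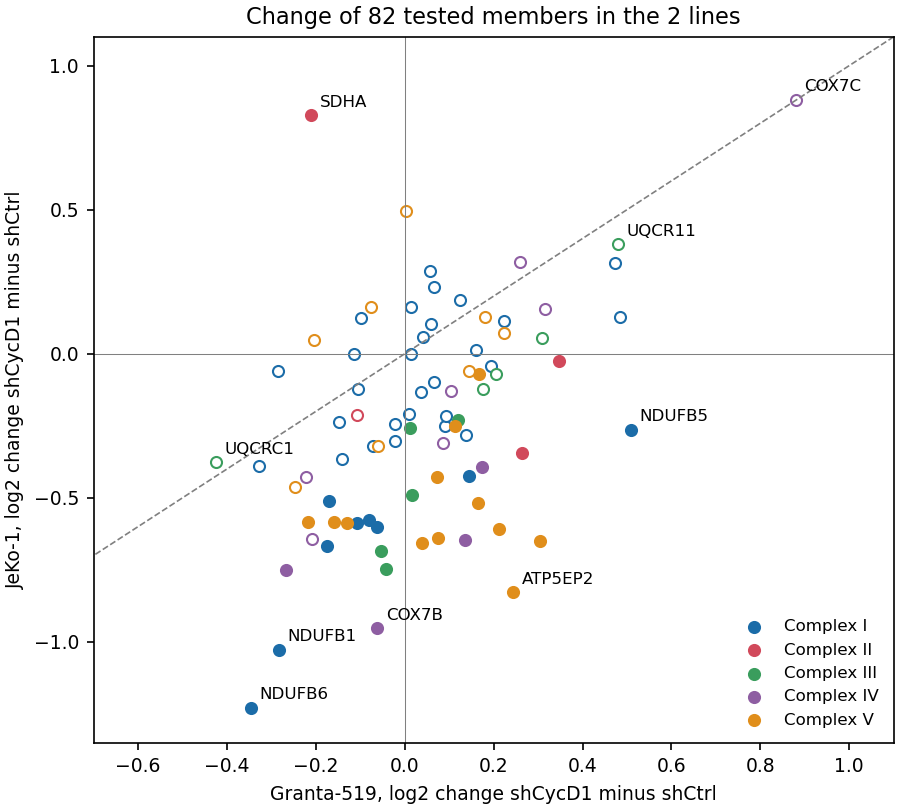
Change of the 82 tested members in Granta-519 (horizontal axis) against JeKo-1 (vertical axis), both as log2 change, shCycD1 minus shCtrl, coloured by complex. A point is filled where the difference between the lines passed the threshold, and the dashed line marks equal change. The 33 filled points lie below that line except SDHA, at -0.21 and 0.83.

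Genes around the complexes were read from lists chosen with results of these data known. The 13 mitochondrially encoded subunits were not analysed here. Of 7 nuclear genes of the pathway whose symbols fall outside the naming pattern, 5 fell in JeKo-1, beside 27.8% of all genes. Spike-in scaling gave 2 falls there, beside 15.5% of all genes. Quantile normalization gave 3 falls and 1 rise, beside 30.7% and 33.2%. After the GC and length correction 3 of 5 fell, beside 26.0%. In Granta-519, 0 of the 7 were called, where 22.4% of all genes rose and 18.2% fell. With spike-in scaling 6 of the 7 rose in Granta-519, beside 58.0% of all genes. USMG5, a small ATP synthase subunit, went from 406 ± 43.3 to 222 ± 17.5 RPKM in JeKo-1 (SD, n = 3), a change of -0.86. CYCS, the electron carrier cytochrome c, changed by -0.69 and NDUFAB1, the acyl carrier protein of complex I, by -0.57. The Granta-519 changes of these genes were 0.17, 0.07 and -0.04.

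The assembly genes were counted beside all genes, of which 36.7% rose and 27.8% fell in JeKo-1 and 22.4% rose and 18.2% fell in Granta-519. Of 13 complex I assembly genes tested in JeKo-1, 8 fell and 0 rose, or 2 and 2 after the GC and length correction. Of 11 tested in Granta-519, 2 fell and 0 rose, or 0 and 6 with spike-in scaling, under which 58.0% of all genes rose. ACAD9, which is needed to build the membrane arm, fell in both lines (-0.79 in JeKo-1 and -0.45 in Granta-519, the latter 0.26 with spike-in scaling). Both complex II assembly genes measured rose in JeKo-1 and 1 rose in Granta-519. In JeKo-1, 2 also rose with quantile normalization and 1 with the GC and length correction. With spike-in scaling 0 rose there, beside 15.2% of all genes. SDHAF2, which attaches flavin to SDHA, went from 32.3 ± 0.999 to 49.3 ± 2.07 RPKM in JeKo-1 and from 34.6 ± 2.27 to 47.4 ± 3.20 RPKM in Granta-519 (SD, n = 3), changes of 0.60 and 0.45. Its JeKo-1 call was lost with spike-in scaling (limma adjusted p = 0.243). Of 4 complex III assembly genes, 2 rose in Granta-519 and 0 were called in JeKo-1. For complex IV, JeKo-1 had 5 rises and 6 falls among 23 genes, and Granta-519 had 6 rises and 1 fall among 21, so the falls of JeKo-1 were near the share of all genes. CMC2 fell in both (-1.19 and -0.57, the latter 0.14 with spike-in scaling), the copper chaperone gene SCO2 rose in JeKo-1 (0.78), and COX20 rose in Granta-519 (0.68). The SCO2 call was lost with spike-in scaling. Of the 3 complex V assembly genes, ATPAF2 rose (0.60) and TMEM70 fell (-0.52) in JeKo-1, and 0 were called in Granta-519. Both JeKo-1 calls were lost with spike-in scaling, and that of TMEM70 also with the GC and length correction.

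The TCA cycle, which supplies NADH and succinate to complexes I and II, had more falls than rises in both lines when scaled to the library. Of 17 genes of the cycle and of pyruvate entry, 11 fell and 1 rose in JeKo-1, beside 27.8% and 36.7% of all genes. In Granta-519, 7 fell and 1 rose, beside 18.2% and 22.4% of all genes. Spike-in scaling gave 0 falls and 9 rises there, beside 1.29% and 58.0% of all genes. FH, fumarase, which acts right after complex II in the cycle, was at 111, 112 and 106 RPKM in the shCtrl libraries and 36.02, 36.7 and 36.2 RPKM in the shCycD1 libraries of JeKo-1. In Granta-519 it was at 32.7, 33.5 and 33.8 RPKM in the shCtrl libraries and 19.3, 18.9 and 20.5 RPKM in the shCycD1 libraries. The groups of FH did not overlap, and its mean level was 2.99-fold lower in JeKo-1 and 1.69-fold lower in Granta-519 (log2 change -0.03 there with spike-in scaling), with a difference of 0.82, adjusted p = 1.93e-05. IDH2, the mitochondrial NADP-dependent isocitrate dehydrogenase, changed by -0.99 in JeKo-1 and -1.0 in Granta-519, and PDHA1, of the pyruvate dehydrogenase complex, by -1.31 and -0.73. The single risers were IDH3G in JeKo-1 (0.37) and SUCLG2 in Granta-519 (0.27). Neither call was firm. IDH3G was not called with the GC and length correction (adjusted p = 0.193) or spike-in scaling (adjusted p = 0.548), and SUCLG2 was not called with quantile normalization (adjusted p = 0.148) or without any 1 of 5 libraries (adjusted p up to 0.121).

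Many of these genes are known targets of the transcription factors NRF1, GABP (an ETS factor made of GABPA and GABPB1), YY1 and ESRRA. NRF1 mRNA was lower in both lines, at 11.9, 11.5 and 13.6 RPKM in the shCtrl libraries and 5.97, 5.66 and 7.73 RPKM in the shCycD1 libraries of JeKo-1 and 2.46, 2.1 and 2.43 RPKM in the shCtrl libraries and 1.68, 1.61 and 1.59 RPKM in the shCycD1 libraries of Granta-519. Its groups did not overlap, with changes of -0.89 ± 0.13 (SE, adjusted p = 0.00085) and -0.41 ± 0.09 (SE, adjusted p = 0.0118), the latter 0.17 with spike-in scaling. GABPB1 fell in JeKo-1 from 25.3 ± 1.89 to 12.7 ± 1.84 RPKM (SD, n = 3), a change of -0.98, and changed by -0.02 in Granta-519 (adjusted p = 0.844). ESRRA rose in both lines (0.88 and 0.40). Its Granta-519 call was lost without any 1 of 3 libraries (adjusted p up to 0.0746). POLRMT, the RNA polymerase of mitochondria, rose in JeKo-1 (0.83), and TFB1M went down in JeKo-1 (-0.41) and up in Granta-519 (0.45). The JeKo-1 call of TFB1M was lost with spike-in scaling or with the GC and length correction. Of 13 regulator genes tested in each line, 3 rose and 6 fell in JeKo-1, and 4 rose and 2 fell in Granta-519, where 22.4% of all genes rose and 18.2% fell. In JeKo-1 these shares were 36.7% and 27.8%.

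Promoters of 67 of the 88 members could be matched in RefSeq (GRCh38.p14), each from 250 bases before to 50 after the gene's start. The NRF1 motif, GCGCA followed by any base and then GCGC, was searched on both strands and was in 16 of them (23.9%), against 6.28% of all 27305 promoters in the table. Its palindromic form, with T as the free base and so a special case of the first, was in 4 (5.97%, against 1.36%). The ETS motif CCGGAAG was in 19 (28.4%, against 10.7%) and the YY1 motif, AA followed by any base and ATGGCGG, in 14 (20.9%, against 2.26%). At least 1 of these was found in 38 promoters and none in 29. In JeKo-1, 7 of 15 tested members with the NRF1 motif fell and 24 of 48 without it, 9 of 19 with the ETS motif and 22 of 44 without it, and 9 of 14 with the YY1 motif and 22 of 49 without it. A match is a run of letters and not a shown binding site.

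The 250 bases before the start of 5 members are printed 5′ to 3′ on the gene's strand, with the NRF1 motif on either strand in capitals, because these genes carry the results above: SDHA rose in JeKo-1 alone (chr5:218070-218319, + strand), ATP5C1 fell in JeKo-1 (chr10:7787927-7788176, + strand), UQCRC1 fell in both lines (chr3:48609647-48609896, - strand), and COX7C (chr5:86617691-86617940, + strand) and NDUFB6 (chr9:32573160-32573409, - strand) had the largest rise and the largest fall. SDHA holds the motif at 4 places, each 49 bases after the last, from 166 to 19 bases before the start. ATP5C1 holds the palindromic form 22 bases before its start, and UQCRC1 holds the motif once, 47 bases before it. In COX7C and NDUFB6 the window holds none of the 3 motifs searched.
SDHA: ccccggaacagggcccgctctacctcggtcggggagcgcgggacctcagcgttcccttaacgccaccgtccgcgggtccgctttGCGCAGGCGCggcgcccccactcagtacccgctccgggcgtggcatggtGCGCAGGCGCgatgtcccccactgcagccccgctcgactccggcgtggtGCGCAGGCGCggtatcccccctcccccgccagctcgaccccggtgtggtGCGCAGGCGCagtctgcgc
ATP5C1: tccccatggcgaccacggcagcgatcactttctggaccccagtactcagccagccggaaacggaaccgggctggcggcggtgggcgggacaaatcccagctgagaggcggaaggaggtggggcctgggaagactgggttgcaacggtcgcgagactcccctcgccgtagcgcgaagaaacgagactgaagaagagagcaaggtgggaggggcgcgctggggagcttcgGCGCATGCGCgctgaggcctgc
UQCRC1: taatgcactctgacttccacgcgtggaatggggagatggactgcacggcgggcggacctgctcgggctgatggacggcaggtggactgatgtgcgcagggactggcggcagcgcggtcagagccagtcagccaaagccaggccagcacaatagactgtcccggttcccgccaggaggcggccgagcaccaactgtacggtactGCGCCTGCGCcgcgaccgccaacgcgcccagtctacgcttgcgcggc
COX7C: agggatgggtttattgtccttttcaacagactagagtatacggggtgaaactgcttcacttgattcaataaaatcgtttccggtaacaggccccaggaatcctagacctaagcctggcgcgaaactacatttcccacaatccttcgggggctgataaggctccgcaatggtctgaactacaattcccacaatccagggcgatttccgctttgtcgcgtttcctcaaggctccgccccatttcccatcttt
NDUFB6: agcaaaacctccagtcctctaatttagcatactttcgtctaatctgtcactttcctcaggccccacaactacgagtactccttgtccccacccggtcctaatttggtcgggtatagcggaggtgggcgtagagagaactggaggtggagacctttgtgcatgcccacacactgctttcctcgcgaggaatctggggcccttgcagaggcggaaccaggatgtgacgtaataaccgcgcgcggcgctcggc

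The JeKo-1 changes also went with the base composition of the transcripts. Across the 82 members, the change in JeKo-1 correlated with the GC content of the longest transcript at a Pearson r of 0.41 and a Spearman rho of 0.46, and across 11440 genes tested at 0.34 and 0.41. These are descriptions across genes that share the same 6 libraries. In Granta-519 the members gave -0.20 by both measures. Among the 41 members of lower GC content (35.0 to 47.4%), 27 fell and 2 rose in JeKo-1, with a median of -0.37. Among the 41 of higher GC content (47.5 to 65.0%), 12 fell and 4 rose, with a median of 0.0003. Over all genes tested in JeKo-1, 27.8% fell and 36.7% rose. After a correction for GC content and length, 34 members fell and 7 rose in JeKo-1, 41.5% fallen beside 26.0% of all genes, with 28 of the 39 first called falls among them, and the median of the members was -0.07, with all genes at 0.10. NDUFB6, NDUFB1 and COX7B then changed by -0.82, -0.57 and -0.59 and stayed past the threshold, and SDHA and COX7C by 0.83 and 1.34. The part of base composition in the falls was not tested beyond this.

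**Figure D4:**
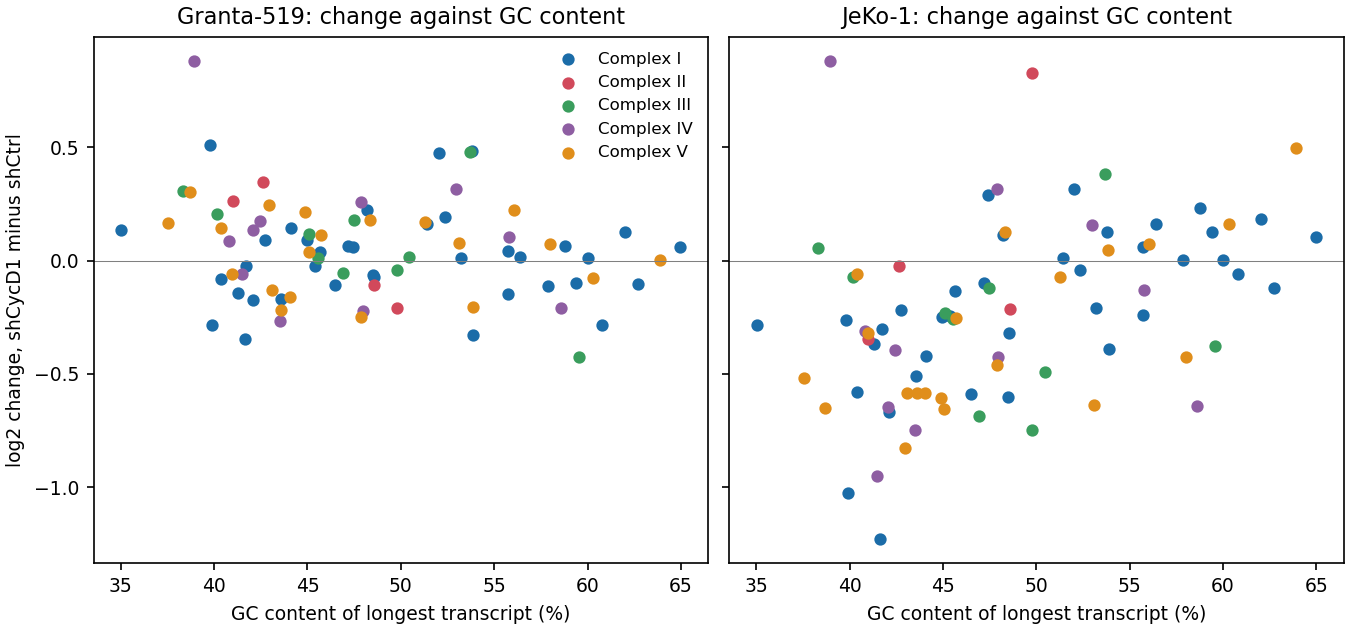
Change of each tested member (vertical axis, log2, shCycD1 minus shCtrl) against the GC content of its longest transcript in percent (horizontal axis), Granta-519 on the left and JeKo-1 on the right, coloured by complex. In JeKo-1 the lowest points lie at low GC content, where COX7C, at 0.88, lies too. In Granta-519 the Pearson r is -0.20.

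The direction of the Granta-519 values depends on what a library is scaled to. The 92 spike-in RNAs, synthetic transcripts added to each sample, made up 8.05 to 11.9% of summed RPKM in the Granta-519 controls and 5.42 to 6.50% in the silenced libraries, against 4.68 to 6.83% and 4.54 to 7.42% in JeKo-1. Scaling to them moved the median change of all genes in Granta-519 from 0.03 to 0.71 and that of the members from 0.04 to 0.77, so that 62 of 82 members rose and 0 fell, beside 58.0% of all genes risen. Relative to all genes, the members of Granta-519 stayed near the middle under both scalings. In JeKo-1 the median of all genes moved to -0.03 and that of the members to -0.36. There 9 members fell (11.0%, beside 15.5% of all genes) and 0 rose (beside 15.2% of all genes). Those 9 were NDUFB6, NDUFB1, NDUFS1, COX7B, COX7A2L, UQCRH, UQCRHL, ATP5EP2 and ATP5L2. COX7C was still at 0.76 and SDHA at 0.71 in JeKo-1, without passing the threshold (adjusted p = 0.0885 and 0.0785), and COX7C was at 1.62 in Granta-519. The difference between the lines was then positive past the threshold for 58 members and negative for 0, with medians of 1.11 for the members and 0.78 for all genes.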

How the data were processed

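RNA of 12 libraries was analysed, 3 in each of 4 groups taken from the sample titles. Per the labels' protocols, stranded mRNA libraries were made from total RNA purified on RNeasy columns. Builds GRCh37 and hg19 and the tools TopHat2 2.1.1, limma 3.9 and FastQC stand in the submitters' processing notes without stated roles. The sources used here do not give the counter, the annotation or the log transform. The values the authors deposited, 1 table per line, were read as the natural log (ln) of RPKM + 1. In Granta-519, natural-log values times the genomic span were whole multiples of 1 step in 70.4 to 75.1% of low values (tolerance 0.1, chance 20.0%), against at most 53.8% for other bases. In JeKo-1 the base is inferred from spike-ins, whose SD matched that of Granta-519 with a natural log (ratio 0.98, 0.95 to 1.01), and is not settled.

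One row per symbol was used, that of the highest mean. limma 3.58.1 in R 4.3.3 (trended empirical Bayes) was fitted on log2(RPKM + 0.5) for genes at 1 RPKM or more in at least 3 of 6 libraries, and for the difference over all 12 libraries, with Benjamini-Hochberg adjustment over all genes. The scripts were tested on simulated data. GC content and length came from GENCODE v29 transcripts for all 82 tested members. Members, lists and tests were chosen with earlier results of these data known. Named were core subunits, COX4I1, COX5A and COX5B, the largest called changes, isoform genes, members that are not subunits and the largest called changes of each other list. Other named genes were chosen after their values had been seen. The values of 1 member are not reported here. Alternatives are in the closing section.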

Additional observations from a re-analysis of the deposited data

Results flagged for a closer look

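The members below had changes that differed between the lines past the threshold, by limma's test of the Granta-519 change minus the JeKo-1 change on the log2 scale. SDHA was lower in Granta-519, with a difference of -1.04 (adjusted p = 0.000256). The other genes of complex II had positive differences, SDHC 0.37 (adjusted p = 0.0179) and SDHD 0.61 (adjusted p = 0.0291). In complex I the differences were NDUFB6 0.88 (adjusted p = 0.000976), NDUFB5 0.77 (adjusted p = 0.00251), NDUFB1 0.74 (adjusted p = 0.00467) and NDUFS1 0.49 (adjusted p = 0.00593). In complex III they were UQCRH 0.71 (adjusted p = 0.00224), UQCRHL 0.63 (adjusted p = 0.0104), UQCRFS1 0.35 (adjusted p = 0.0487) and UQCRC2 0.27 (adjusted p = 0.021). In complex IV, counted by symbol, they were COX7B 0.89 (adjusted p = 0.000907), COX7A2 0.57 (adjusted p = 0.00936) and COX7A2L 0.48 (adjusted p = 0.0055). In complex V they were ATP5EP2 1.07 (adjusted p = 0.000451), ATP5E 0.96 (adjusted p = 0.00118), ATP5H 0.82 (adjusted p = 0.00444), ATP5L2 0.69 (adjusted p = 0.0394), ATP5C1 0.37 (adjusted p = 0.0197), ATP5A1 0.37 (adjusted p = 0.00373) and ATP5B 0.24 (adjusted p = 0.0492). NDUFB5, SDHD and ATP5E are cases in which the Granta-519 and JeKo-1 values lie on opposite sides of 0. The difference of ATP5C1 was -0.0088 after the GC and length correction, under which those of NDUFB1, COX7A2L, COX7A2, SDHC, SDHD, UQCRC2, UQCRFS1, ATP5L2 and ATP5B were no longer called (adjusted p from 0.0661 for NDUFB1 to 0.543 for UQCRC2). If JeKo-1 values were log2, those of NDUFB1 (adjusted p = 0.0529), COX7A2L (0.0629), NDUFS1 (0.0507), ATP5C1, UQCRFS1, ATP5L2 and ATP5B were not called. With quantile normalization those of ATP5A1 (adjusted p = 0.43), SDHC (0.0749), SDHD, ATP5C1, UQCRC2 and UQCRFS1 were not called. The part of culture medium, base composition and library scaling in these differences was not tested.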

How the results depend on the processing

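Values below are ordered as members risen, fallen, and their median. In Granta-519 (6, 3, 0.04), spike-in scaling gave 62, 0 and 0.77, with 7462 of all genes risen and 166 fallen. A replicate block left 1 fall, the GC and length correction gave 8 falls, and both together 6. Leaving out 1 library gave 4 to 14 risen members (14 without shCtrl replicate 2), 1 to 4 fallen (1 without shCycD1 replicate 2) and 1700 to 2712 risen genes in all (1700 without shCycD1 replicate 1). In JeKo-1 (6, 39, -0.25), quantile normalization gave 15, 28 and -0.11, with 30.7% of all genes fallen. Spike-in scaling gave 0, 9 and -0.36 with 1801 of all genes risen and 1831 fallen. A mean RPKM of 5 or more gave 2874 risen genes in all. The GC and length correction gave a median of -0.071, and with the block 12 risen and a median of -0.071. Leaving out 1 library gave 34 to 43 fallen members, with 2813 to 3072 genes fallen in all. For the difference (32 higher in Granta-519, 1 lower), quantile normalization gave 21 and 6, spike-in scaling 58 and 0 with a median of 1.11 and 3940 and 147 of all genes, the GC and length correction 19 and 2, the same with the block 18 and 2, JeKo-1 read as log2 20 higher, and a mean RPKM of 5 or more 1487 of all genes lower. Leaving out 1 library gave 1 to 4 lower members (4 without JeKo-1 shCtrl replicate 1 and 2 without JeKo-1 shCycD1 replicate 3), with 1991 to 2585 of all genes lower.

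Reversed in Granta-519 with spike-in scaling were ATP5G3 0.68, ATP5J2-PTCD1 0.66, COX7A2L 0.47, COX7B 0.68, COX8A 0.54, NDUFB6 0.38, NDUFV1 0.65, UQCRC1 0.31, UQCRH 0.70, UQCRHL 0.69, ACAD9 0.26, CMC2 0.14, NRF1 0.17 and TMEM70 0.72. Reversed in JeKo-1 with the GC and length correction were COX6A1 0.093, NDUFV1 -0.17 and NDUFV2 0.050, and with the block also NDUFS8 -0.29. Reversed differences were ATPAF2 0.074, ESRRA 0.38 and SCO2 0.21 with spike-in scaling, and ATP5C1 -0.0088 and SUCLG2 -0.23 with the GC and length correction. The causes were not tested. Calls lost with at least 1 library left out, with the highest adjusted p by limma, were COX7A2L 0.111, NDUFA1 0.126, UQCR11 0.0592 and NDUFB6 0.0511 (without shCycD1 replicate 2) among the members in Granta-519, and UQCRFS1 0.134, NDUFS3 0.112, ATP5G3 0.0823, NDUFA10 0.074, UQCR11 0.0665 and COX6A1 0.0558 among the named members in JeKo-1. For the differences they were ATP5B 0.119, UQCRFS1 0.115, ATP5L2 0.0968, SDHD 0.072, UQCRC2 0.0542 and ATP5C1 0.0515.

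The replicate numbers were not taken to pair the samples, since not every pair correlated above 0.1: deviations of same-numbered libraries correlated at 0.01, -0.12 and 0.03 in Granta-519 and at 0.19, 0.09 and 0.10 in JeKo-1, where each library correlated best with its own number, a hint from the data and not the design. Under the block 4 of 6 rises and 1 of 3 falls were kept in Granta-519, and all 39 falls and 6 rises in JeKo-1, where 46 members fell and 9 rose in all. The depth is unknown, and 3 libraries a group limit the precision.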
